A study of Mus musculus with 9 samples.

Results

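The BCL2 family is described here through 8 of its genes in mouse regulatory T cells, 3 that restrain apoptosis (Bcl2, Bcl2l1 and Mcl1), 2 that form pores in the mitochondrial outer membrane (Bax and Bak1) and 3 BH3-only genes that link stress to the others (Bcl2l11, Bid and Bad). The members are all probe sets annotated to 1 of these genes alone, 22 of the 22626 probe sets on the array that are not controls. They cover 7 of the 8 genes, because no probe set is named for Bax in the annotation used here, and Bax was not analysed here. A probe set is a group of short probes for a transcript. Mcl1 has 6 of them, Bcl2l11 has 5, Bcl2l1 has 4, Bak1, Bid and Bad have 2 each and Bcl2 has 1.

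Apoptosis through mitochondria turns on a balance between proteins of this family. BCL2, BCL-XL (the product of Bcl2l1) and MCL1 hold BAX and BAK in check, while BH3-only proteins such as BIM (the product of Bcl2l11) bind the restrainers or activate the pore formers. Regulatory T cells depend on survival signals, of which interleukin 2 is the best known, and MCL1 and BIM are the members most often tied to their survival. MCL1 protein and its transcript turn over fast, so the level follows recent signals closely. Many of these proteins are also governed by cleavage, phosphorylation or degradation, which an RNA array does not measure.

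Cells were separated with magnets for CD4 and CD25, the surface markers of regulatory T cells, and each of the 9 samples went on 1 array. Sirt1 was knocked out conditionally by Foxp3 cre recombinase in 3 samples (Foxp3-cre) and by CD4 cre recombinase in another 3 (CD4-cre), and the last 3 are wild type (WT). The strain label of all 9 is C57BL6. Sirt1 encodes a protein deacetylase. The Foxp3 Cre is restricted to cells that use the gene of the regulatory T cell factor FOXP3, whereas the CD4 Cre acts across T cells. The labels give no age and do not say which part of Sirt1 the Cre removes or whether WT mice carry a Cre or a marked Sirt1 allele. They call the samples independent without naming animals, so a p-value here covers the spread among the samples, whatever their source. The title of the series asks about the function of these cells when Sirt1 is targeted.

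All levels are the authors' deposited RMA signals on the log2 scale, where a difference of 1 is a 2-fold change. WT replicate 2 stood apart: its 5′ minus 3′ signal of the beta-actin control was -1.53, against -0.68 to -0.45 on the other 8 arrays, and results are therefore also given without it. The Sirt1 probe set did not separate the genotypes, with 7.66, 7.54 and 7.47 in Foxp3-cre, 7.69, 7.59 and 7.59 in CD4-cre and 7.91, 6.77 and 7.90 in WT; whether it lies in the removed part of the gene is not known, so it does not check the genotypes. The Foxp3 probe set read 2.67, 3.38 and 2.83 in Foxp3-cre, against 9.68, 9.69 and 9.62 in CD4-cre and 9.16, 9.68 and 9.34 in WT. The Foxp3-cre values thus lay below the signal threshold used here. Which part of the Foxp3 transcript this probe set reads is not known. A loss of the transcript and a change in the part that is read therefore cannot be told apart. Foxp3 was the 1 of 10 regulatory T cell markers that passed in Foxp3-cre against WT, and the mean of the other 9 was 8.71 to 8.82 in Foxp3-cre, 8.77 to 8.83 in CD4-cre and 8.57 to 8.71 in WT. T cell markers averaged 10.80 to 10.87 in Foxp3-cre, 10.88 to 10.94 in CD4-cre and 10.79 to 10.98 in WT. The transcripts of CD4 and CD25 were present on every array, with 8.69 or more for Cd4 and 8.39 or more for Il2ra.

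A probe set was tested if its mean over the 9 arrays reached a log2 signal of 4.52, which 13576 did, and passed where its limma p, adjusted by Benjamini-Hochberg over all of these, was below 0.05. Of the 22 members 18 were tested, at least 1 for each of the 7 genes. In Foxp3-cre against WT 3 of the 18 fell and none rose, where 2.64% of all tested probe sets changed. With the replicate number as a block it was 4 of the 18, where 3.58% of all changed. In CD4-cre against WT 1 of the 18 fell and none rose, where 0.449% of all changed. Both comparisons use the same WT arrays. Between Foxp3-cre and CD4-cre limma called 0 of the 18, where 0.00737% of all changed. At an unadjusted p under 0.05 it was also 0 of the 18, against 1428 of all 13576 tested probe sets. Every call among the members in these fits belongs to Mcl1. In bulk RNA, fewer cells of a type and less RNA per cell cannot be told apart.

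Mcl1, the short-lived restrainer of BAK, stood lower in both knockouts on 4 of its 6 probe sets, by differences of -0.77 to -0.56 on the log2 scale, and 3 of the 4 passed in at least 1 knockout. Of these 4, only 1416880_at does not end in _x_at, a suffix explained below. The sets without the difference, 1448503_at and 1416881_at, do not end in it either. The Mcl1 promoter is shown because Mcl1 is the 1 gene of the family with called probe sets. It runs from 250 bases before to 50 bases after the start of the gene, is credited to RefSeq on the build GRCm38.p6, and lies on the plus strand at chr3:95658471-95658770. Capitals mark the 1 match found among 6 motifs searched on both strands.
Mcl1: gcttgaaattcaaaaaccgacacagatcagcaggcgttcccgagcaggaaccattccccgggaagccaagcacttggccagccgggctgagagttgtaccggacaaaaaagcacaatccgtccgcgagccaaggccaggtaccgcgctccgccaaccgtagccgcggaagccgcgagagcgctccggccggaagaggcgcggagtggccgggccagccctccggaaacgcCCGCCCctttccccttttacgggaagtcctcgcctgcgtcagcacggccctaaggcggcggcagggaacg
The match is to the GC box, GGGCGG, which 35.7% of 32851 promoter windows of that length hold. The Mcl1 window held no match for the CCAAT box (CCAAT), the cyclic AMP response element (TGACGTCA), the STAT motif (TTCNNNGAA), the FOXO motif (TGTTTAC) or the TATA box (TATAAA), which stand in 37.4%, 1.79%, 8.30%, 3.65% and 13.6% of all windows. Among the 12 windows of the 8 member genes, the STAT and TATA motifs matched in none and the FOXO motif once, in 1 of the 2 windows of Bcl2l11.

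The Mcl1 probe set 1416880_at gave the clearest separation. Its signals were 9.44, 9.54 and 9.65 in Foxp3-cre, 9.53, 9.55 and 9.56 in CD4-cre, and 10.05, 10.33 and 10.12 in WT. All 6 knockout arrays lay below all 3 WT arrays, and the CD4-cre arrays were the most alike. It fell by 0.63 in Foxp3-cre (SE 0.09, limma adjusted p = 0.0155) and by 0.62 in CD4-cre (SE 0.09, adjusted p = 0.0264), which are ratios of 0.647 and 0.649. Foxp3-cre and CD4-cre differed by -0.0037, with a 95% confidence interval of -0.22 to 0.21. Without WT replicate 2 the changes were -0.55 (adjusted p = 0.00930) and -0.54 (adjusted p = 0.0137). Leaving out Foxp3-cre replicate 2 gave an adjusted p of 0.0512 in Foxp3-cre and 0.0652 in CD4-cre. In CD4-cre the call was also lost without CD4-cre replicates 1, 2 and 3, at adjusted p = 0.153, 0.152 and 0.119, and without WT replicate 3, at 0.0716, while the change stayed between -0.68 and -0.54.

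The probe sets 1437527_x_at, 1456243_x_at and 1456381_x_at also had both knockouts below WT. By the array maker's naming, sets ending in _x_at hold probes that also match other sequences, so part of their signal may not be Mcl1, which was not tested. For 1437527_x_at the signals were 10.25, 10.46 and 10.39 in Foxp3-cre, 10.47, 10.46 and 10.49 in CD4-cre and 10.85, 11.34 and 10.89 in WT. For 1456243_x_at they were 9.79, 10.01 and 9.96 in Foxp3-cre, 10.07, 10.09 and 10.05 in CD4-cre and 10.43, 10.95 and 10.51 in WT. On both sets every knockout array lay below every WT array, and WT replicate 2 was the highest of the 9. Both fell in Foxp3-cre, by 0.66 (SE 0.13, limma adjusted p = 0.0360) and 0.71 (SE 0.13, adjusted p = 0.0327). In CD4-cre they stood at -0.56 (adjusted p = 0.117) and -0.56 (adjusted p = 0.127) and passed without WT replicate 2, at -0.40 and -0.40 (adjusted p = 0.0346 and 0.0403). In Foxp3-cre their calls were lost when any 1 array other than WT replicates 1 and 2 was left out, at adjusted p between 0.0648 and 0.112.

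The third, 1456381_x_at, had 9.68, 9.87 and 9.84 in Foxp3-cre, 9.76, 9.81 and 9.76 in CD4-cre and 10.25, 10.98 and 10.41 in WT. Here too the knockout and WT arrays did not overlap, and WT replicate 2 was again the highest. Against WT it stood at -0.75 in Foxp3-cre (SE 0.17, limma adjusted p = 0.0508) and at -0.77 in CD4-cre (SE 0.17, adjusted p = 0.0924), and neither passed. With the replicate number as a block the Foxp3-cre difference passed, at adjusted p = 0.0342. Without WT replicate 2 both passed, at -0.53 (adjusted p = 0.0139) and -0.55 (adjusted p = 0.0182).

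The other 2 Mcl1 probe sets did not show the difference over 9 arrays. On 1448503_at, the brightest of the 6, Foxp3-cre had 11.27, 11.44 and 11.41, CD4-cre had 11.41, 11.36 and 11.39, and WT had 11.52, 11.07 and 11.61. On 1416881_at, the dimmest, Foxp3-cre had 8.84, 9.03 and 9.09, CD4-cre had 9.19, 9.10 and 9.08, and WT had 9.38, 8.76 and 9.29. On both, WT replicate 2 was the lowest of the 9 arrays and the other 2 WT arrays were the highest. The changes were -0.03 (SE 0.13) and -0.16 (SE 0.15) in Foxp3-cre and -0.02 (SE 0.13) and -0.02 (SE 0.15) in CD4-cre, with limma adjusted p between 0.590 and 0.964. Their 95% confidence intervals reached down to -0.33 and -0.50 in Foxp3-cre and to -0.32 and -0.37 in CD4-cre.

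WT replicate 2 thus split the Mcl1 probe sets: relative to the mean of the other WT arrays it lay higher by 0.24 to 0.65 on the 4 sets that were lower in the knockouts, and at -0.50 and -0.58 on the 2 others. The 5′ minus 3′ values of the actin control above moved with that array. With them as a covariate, the changes of the 6 sets ran from -0.55 to -0.17 in Foxp3-cre and from -0.60 to -0.13 in CD4-cre. Only WT replicate 2 stood apart in these values, so this fit cannot tell them apart from other traits of that array. Their part in the split was not tested. Counting WT replicates 1 and 3 alone, both lay above all 6 knockout arrays on 6 of 6 Mcl1 probe sets and on none of the 12 other tested members, where 12.2% of all tested probe sets did so. With all 3 WT arrays it was 4 of 6, where 4.91% of all did. The count with WT replicates 1 and 3 alone was chosen after the signals above were seen and follows from them. The 6 sets read 1 gene on the same arrays, so they are not independent of each other. Without WT replicate 2 the changes of the 6 sets ran from -0.55 to -0.20 in Foxp3-cre and from -0.55 to -0.18 in CD4-cre, and 4 passed in each, where 5.45% and 2.56% of all tested probe sets passed. The 2 sets that did not pass had limma adjusted p of 0.146 and 0.0566 in Foxp3-cre and 0.199 and 0.213 in CD4-cre.

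**Figure D1:**
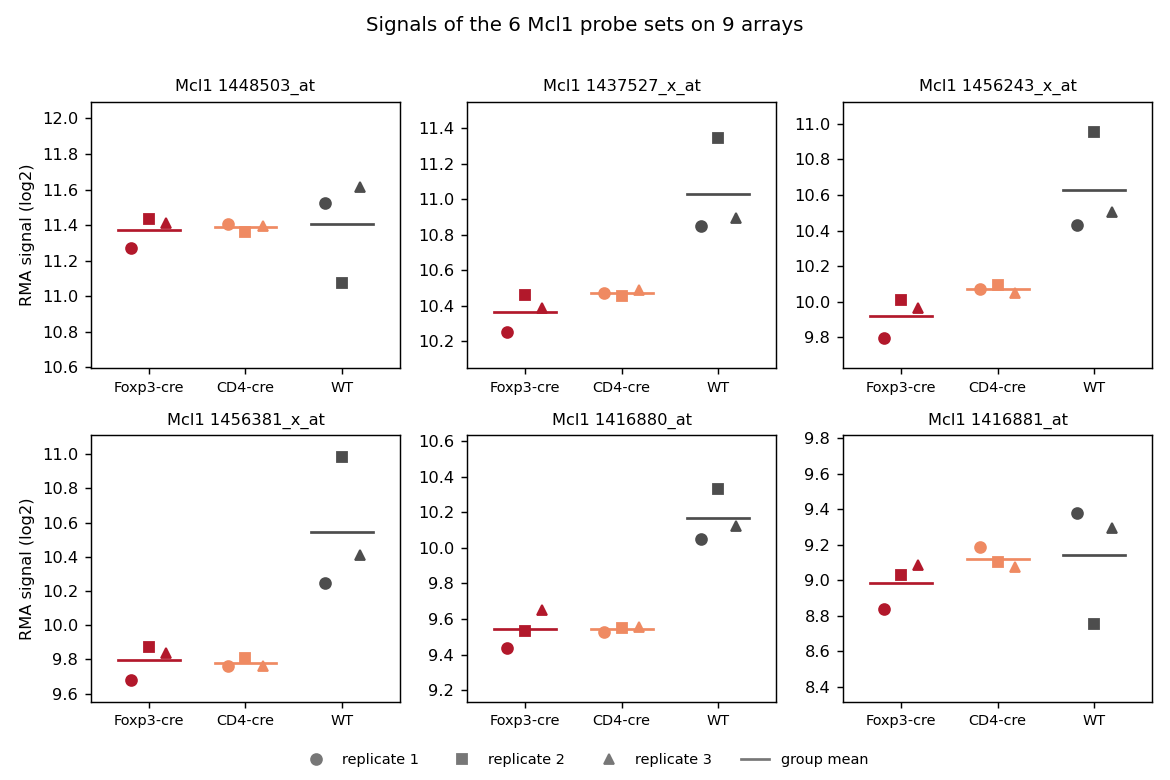
RMA signals (log2) of the 6 Mcl1 probe sets on each of the 9 arrays, with a symbol for each replicate number and a line at the group mean; each panel has its own axis. On 4 sets the knockout arrays lie below all WT arrays, and on 1448503_at and 1416881_at WT replicate 2 is the lowest of the 9.

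Among the other restrainers, Bcl2, the founding member, was level. Its 1 probe set read 6.34, 6.54 and 6.44 in Foxp3-cre, 6.38, 6.43 and 6.44 in CD4-cre and 6.43, 6.53 and 6.63 in WT, so the groups overlapped. The differences from WT were -0.09 (95% confidence interval -0.28 to 0.10, limma adjusted p = 0.573) in Foxp3-cre and -0.11 (-0.30 to 0.08, adjusted p = 0.595) in CD4-cre. It was 1 of 2 tested members on which WT replicate 2 was neither the highest nor the lowest array, and without it the values were -0.09 and -0.11.

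Bcl2l1, whose long product BCL-XL protects cells and whose short splice product promotes death, was read by 2 tested probe sets that did not agree. The brighter, 1420888_at, had 7.81, 7.71 and 7.70 in Foxp3-cre, 7.84, 7.93 and 7.78 in CD4-cre and 7.78, 8.13 and 7.63 in WT. The dimmer, 1420887_a_at, had 4.99, 4.84 and 5.01 in Foxp3-cre, 5.40, 5.15 and 5.15 in CD4-cre and 5.12, 4.47 and 4.96 in WT. On the first all groups overlapped, and on the second the CD4-cre arrays lay above the others. That set stood at 0.38 in CD4-cre (SE 0.16, limma adjusted p = 0.341) and at -0.29 in Foxp3-cre against CD4-cre (SE 0.16, adjusted p = 0.567). Without WT replicate 2 it stood at 0.20 against WT. The remaining 2 probe sets of Bcl2l1 were below the signal threshold, at 3.95 to 4.59 and 2.53 to 2.85 over the 9 arrays. Which splice product a set reads was not analysed here.

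Of the pore formers only Bak1 was analysed here. Its tested probe set, 1418991_at, had 6.97, 6.77 and 6.83 in Foxp3-cre, 6.67, 6.58 and 6.74 in CD4-cre and 6.83, 7.29 and 6.90 in WT. The CD4-cre arrays lay below those of both other groups, and WT replicate 2 was the highest. CD4-cre stood at -0.34 against WT (SE 0.12, limma adjusted p = 0.284), and at -0.20 without WT replicate 2 (adjusted p = 0.208). Foxp3-cre stood at -0.15 against WT (adjusted p = 0.523), at -0.01 without that array, and at 0.19 against CD4-cre (adjusted p = 0.649). The other Bak1 set was below the signal threshold, at 3.91 to 4.33. Bak1 had the highest F statistic over the 3 groups of the 7 genes' brightest probe sets, 3.82. Over the 9 arrays the genes whose brightest probe set followed it most closely, by Pearson r among 8045 genes, were Syngr1 (0.973), Cd4 (0.963), Hyou1 (0.955), Mical1 (0.951) and Tti2 (0.948), and all 5 read highest on WT replicate 2. Without that array r was 0.840 to 0.980, and these values are a description.

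Bcl2l11, whose product BIM is the BH3-only protein that removes T cells after cytokine withdrawal, had 4 tested probe sets, of which none passed. The brightest, 1435448_at, was close to constant, with 8.60, 8.56 and 8.55 in Foxp3-cre, 8.55, 8.59 and 8.47 in CD4-cre and 8.51, 8.41 and 8.55 in WT. Its differences from WT were 0.08 (95% confidence interval -0.09 to 0.25) and 0.05 (-0.12 to 0.22). The dimmest tested set, 1435449_at, had 5.96, 5.51 and 5.65 in Foxp3-cre, 5.53, 5.49 and 5.40 in CD4-cre and 5.35, 4.39 and 5.35 in WT. On it all 6 knockout arrays lay above all 3 WT arrays, with 5.40 in CD4-cre and 5.35 in WT as the nearest pair, and it was the 1 tested member with that order. The difference was 0.67 in Foxp3-cre (SE 0.24, limma adjusted p = 0.176) and 0.44 in CD4-cre (SE 0.24, adjusted p = 0.458), and without WT replicate 2 it was 0.35 and 0.12. Relative to the mean of the other WT arrays, WT replicate 2 lay at -0.96 on that set and at 0.71 on 1456005_a_at, where the differences from WT were -0.19 and -0.13, and 0.04 and 0.10 without it. The fourth set, 1456006_at, stood at 0.16 and 0.13 (adjusted p = 0.313 and 0.50). The fifth was below the signal threshold and read 3.67 on WT replicate 2, against 4.20 to 4.64 on the other arrays.

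Bid, which caspase-8 cleaves to carry death receptor signals to mitochondria, read 7.65, 7.74 and 7.88 in Foxp3-cre, 7.73, 7.72 and 7.74 in CD4-cre and 7.79, 7.14 and 7.76 in WT on its brighter set. Apart from WT replicate 2 the arrays lay within 0.24 of each other. The differences were 0.20 and 0.16 (limma adjusted p = 0.522 and 0.676), and -0.02 and -0.05 without that array. On the dimmer set, 1448560_at, they were 0.31 and 0.18 (adjusted p = 0.413 and 0.706), and 0.08 and -0.05 without it.

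Bad, a BH3-only protein that survival kinases silence by phosphorylation, was among the most even members. Its set 1416583_at had 6.53, 6.58 and 6.55 in Foxp3-cre, 6.58, 6.65 and 6.55 in CD4-cre and 6.70, 6.66 and 6.58 in WT. The other, 1416582_a_at, had 6.02, 5.98 and 6.01 in Foxp3-cre, 6.16, 6.12 and 6.16 in CD4-cre and 6.01, 6.17 and 6.03 in WT. The groups overlapped, except that on the second set Foxp3-cre lay below CD4-cre, at -0.15 (95% confidence interval -0.31 to 0.02, limma adjusted p = 0.535). Against WT the differences of the 2 sets were -0.09 and -0.07 in Foxp3-cre and -0.05 and 0.07 in CD4-cre. They were -0.09 and -0.02 in Foxp3-cre and -0.04 and 0.12 in CD4-cre without WT replicate 2.

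**Figure D2:**
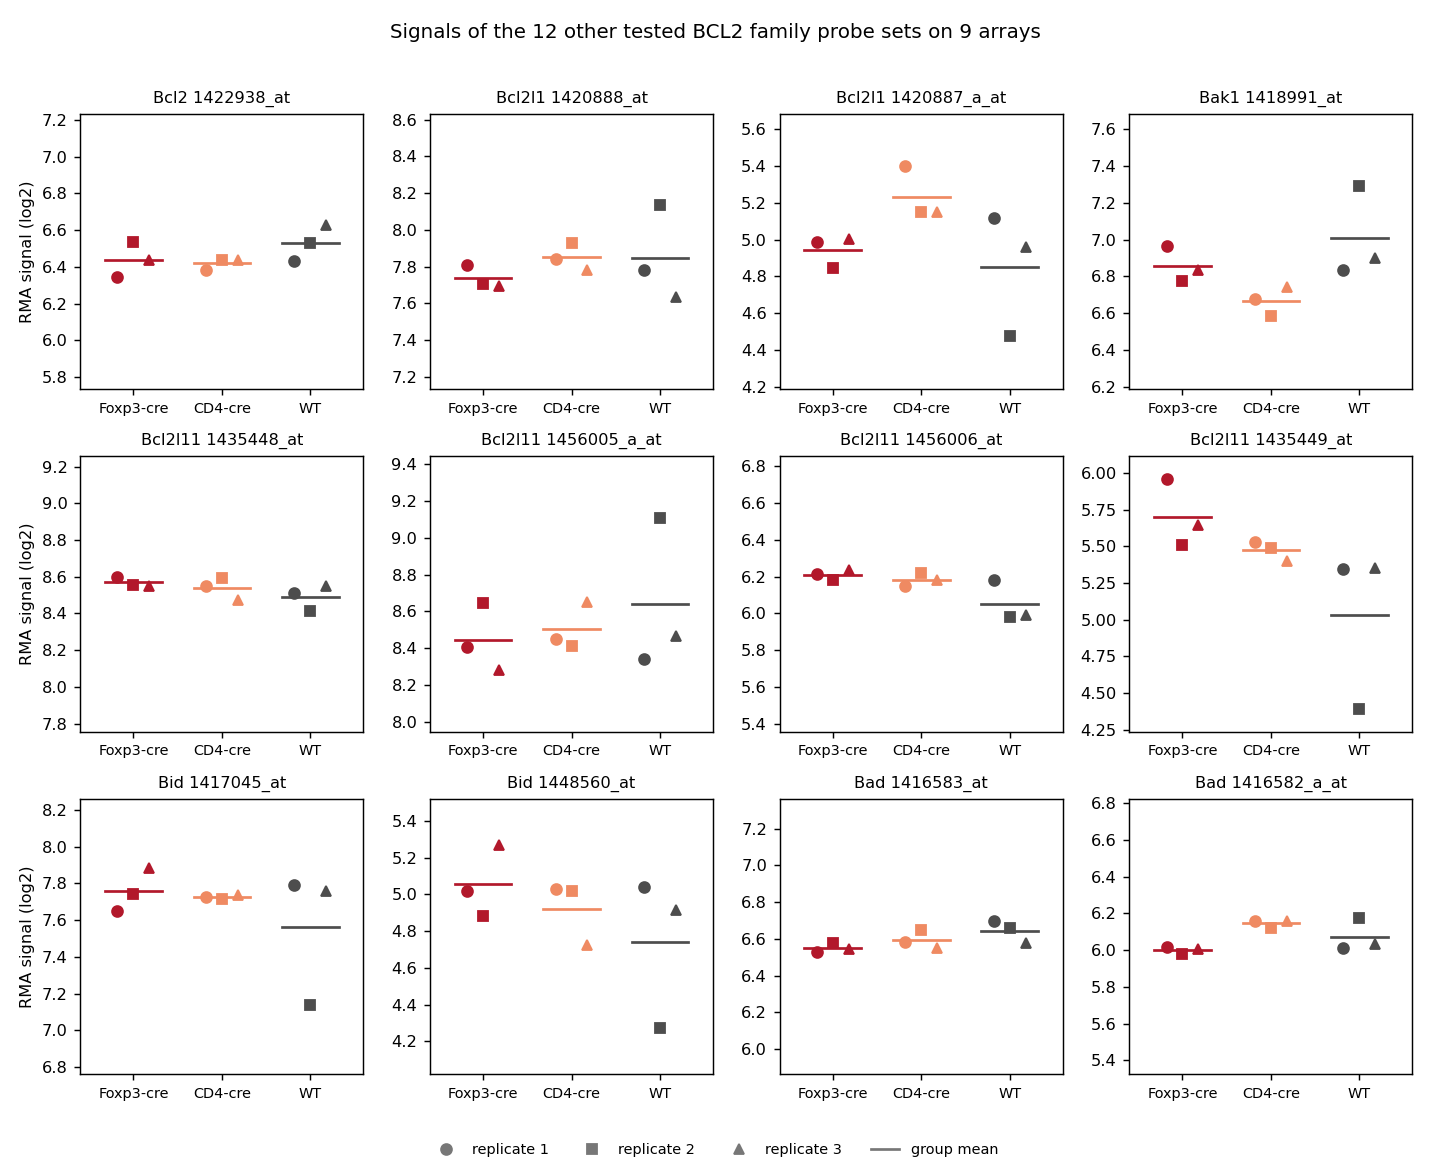
RMA signals (log2) of the 12 tested probe sets of Bcl2, Bcl2l1, Bak1, Bcl2l11, Bid and Bad on each of the 9 arrays, with a symbol for each replicate number and a line at the group mean; each panel has its own axis. WT replicate 2 is the highest or lowest array on most panels, while Bcl2 and Bad differ little between groups.

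Over the 18 tested members the median difference was -0.09 in Foxp3-cre and -0.02 in CD4-cre, beside 0.01 and 0.02 over all tested probe sets. The median size without sign was 0.16 and 0.15, beside 0.14 and 0.12. The arrays of the 2 groups did not overlap on 5 members (27.8%) in Foxp3-cre against WT, 4 of them lower and 1 higher, where 21.1% of all tested probe sets did not overlap. The 4 lower sets all belong to Mcl1. In CD4-cre against WT this was 7 members (38.9%), 5 lower and 2 higher, where it was 19.5% of all. The same 4 Mcl1 sets were among the 5 lower, and sets of 1 gene are not independent of each other. Foxp3-cre and CD4-cre did not overlap on 4 members, 3 lower in Foxp3-cre and 1 higher, where it was 27.9% of all, so that share of the members, 22.2%, was near the background. WT replicate 2 was the highest or the lowest of the 9 arrays on 16 of the 18 members, against 59.8% of all tested probe sets. Bcl2 and Bad 1416583_at were the 2 exceptions.

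**Figure D3:**
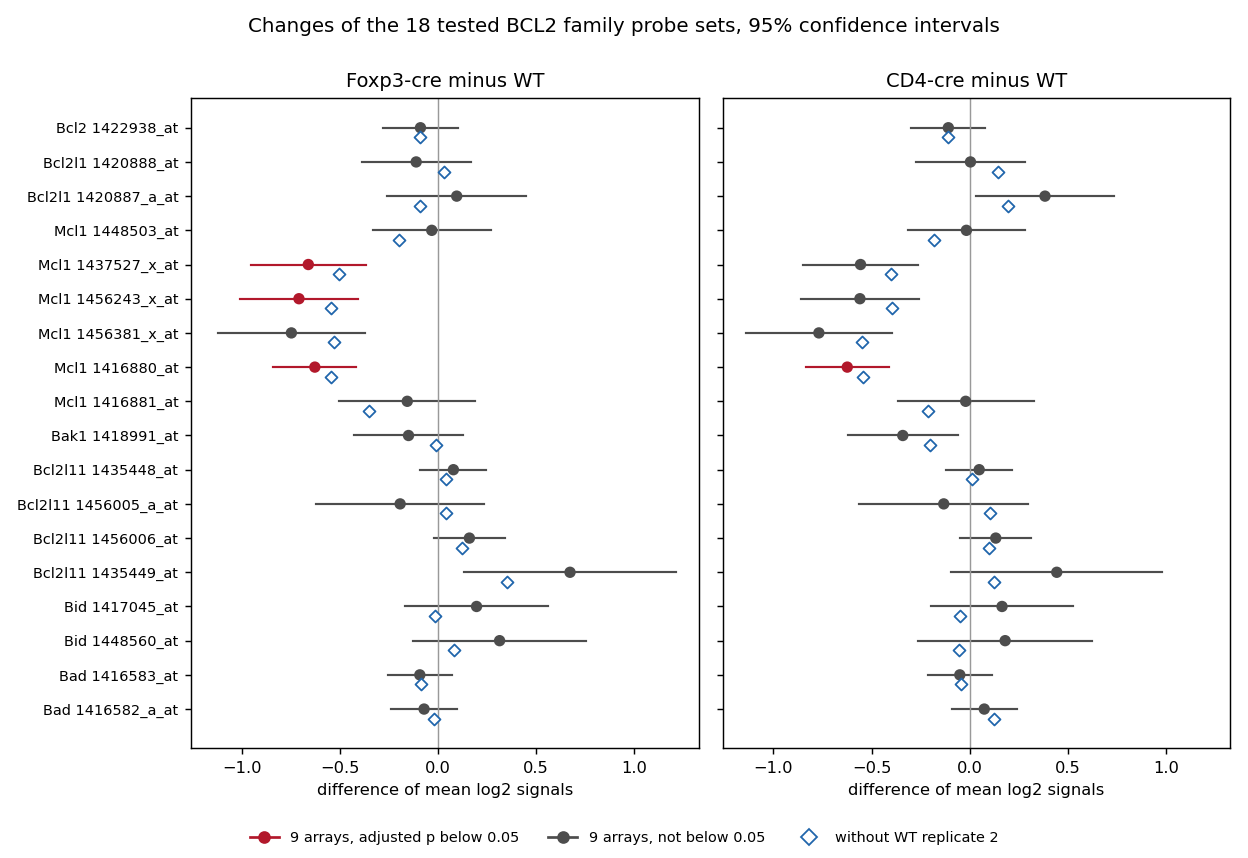
Difference of mean log2 signals of the 18 tested members in Foxp3-cre (left) and CD4-cre (right), each minus WT, with 95% confidence intervals over 9 arrays; red marks limma adjusted p below 0.05, and diamonds give the difference without WT replicate 2. The 6 Mcl1 sets draw together at -0.55 to -0.18 without that array, and most other members move towards 0.

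Other genes of the same family were read by the brightest probe set of each. Of 20 listed, 13 are on the array, 9 were tested and limma called 0 of them in any of the 3 comparisons. At an unadjusted p under 0.05 there were 2 of the 9 in each. Over all 13576 tested probe sets it was 2534 in Foxp3-cre, 1802 in CD4-cre and 1428 between the knockouts. Bcl2l2, the restrainer BCL-W, stood at 0.23 in Foxp3-cre and 0.37 in CD4-cre, and at -0.04 and 0.10 without WT replicate 2. A second tested Bcl2l2 set, 1430453_a_at, stood at -0.21 and -0.06. Bbc3, whose product PUMA is a BH3-only protein induced by p53, read 6.32, 6.89 and 6.85 in Foxp3-cre, 7.22, 7.22 and 7.12 in CD4-cre and 6.89, 7.12 and 7.15 in WT. Its Foxp3-cre arrays lay below those of both other groups, at -0.37 against WT (SE 0.15, adjusted p = 0.227) and -0.50 against CD4-cre (SE 0.15, adjusted p = 0.302). Bik, another BH3-only gene, stood at -0.32 in CD4-cre (adjusted p = 0.140), Becn1, an autophagy protein with a BH3 motif, at -0.29 (adjusted p = 0.346), and Pmaip1, the BH3-only partner of MCL1 known as NOXA, at 0.26 in Foxp3-cre (adjusted p = 0.616) and at -0.02 without WT replicate 2. A second tested Becn1 set stood at -0.06 in CD4-cre. Bcl2l13 stood at 0.21 in Foxp3-cre and 0.16 in CD4-cre, Bcl2l14 at -0.17 in Foxp3-cre, and Bok, a relative of the pore formers, at -0.12 in CD4-cre. These 4 values were 0.06, 0.01, -0.06 and -0.01 without WT replicate 2.

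Downstream of the family, where cytochrome c released from mitochondria assembles with APAF1 and activates caspases, 16 of 18 listed genes were tested and limma called none. At an unadjusted p under 0.05 there were 3 in Foxp3-cre, 2 in CD4-cre and 2 between them. Over all 13576 tested probe sets it was 2534, 1802 and 1428. Aifm1, a mitochondrial flavoprotein released in cell death, and Cycs, cytochrome c, had the largest values in Foxp3-cre, 0.31 and 0.30, and stood at 0.14 and 0.14 without WT replicate 2. In CD4-cre the largest were those of Vdac3, an outer membrane channel, at -0.39 (SE 0.09, adjusted p = 0.113), and Casp6, an executioner caspase, at 0.28, which was -0.02 without WT replicate 2. Apaf1 read 7.39, 7.38 and 7.34 in Foxp3-cre, 7.01, 6.95 and 6.89 in CD4-cre and 7.00, 6.94 and 7.27 in WT. Foxp3-cre thus lay above CD4-cre on every array for Apaf1, at 0.42 (SE 0.10, adjusted p = 0.202), without passing, and a second Apaf1 set stood at 0.20.

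On the death receptor arm that reaches mitochondria through Bid, 2 of 10 tested genes fell in Foxp3-cre, where 2.64% of all tested probe sets changed. None passed in CD4-cre or between the knockouts. At an unadjusted limma p under 0.05 there were 4 in Foxp3-cre, 2 in CD4-cre and 5 between the knockouts. Over all 13576 tested probe sets it was 2534, 1802 and 1428. Fasl, the ligand of the death receptor FAS, had 5.76, 6.18 and 6.39 in Foxp3-cre, 6.61, 6.46 and 6.82 in CD4-cre and 7.56, 7.34 and 7.36 in WT. It fell by 1.31 in Foxp3-cre (SE 0.16, limma adjusted p = 0.00709) and stood at -0.79 in CD4-cre (adjusted p = 0.0832), with all groups apart. Its other probe set stood at -0.63 and -0.46 without passing. Tnfrsf1a, the main receptor of TNF, had 7.59, 7.67 and 7.77 in Foxp3-cre, 7.93, 7.89 and 7.97 in CD4-cre and 8.18, 8.17 and 8.33 in WT. It fell by 0.55 in Foxp3-cre (SE 0.08, adjusted p = 0.0155) and stood at -0.30 in CD4-cre (adjusted p = 0.165). Foxp3-cre minus CD4-cre was -0.52 for Fasl and -0.25 for Tnfrsf1a, and neither passed (adjusted p = 0.314 and 0.332). The Fasl call held without any 1 of the 9 arrays, with changes of -1.45 to -1.13, and that of Tnfrsf1a was lost without Foxp3-cre replicate 2 or WT replicate 3, at adjusted p = 0.0512 and 0.0525.

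Among 21 tested regulators of these proteins and transcripts, from cytokine receptors to kinases and FOXO factors, 1 fell in Foxp3-cre, where 2.64% of all tested probe sets changed. None passed in CD4-cre or between the knockouts. At an unadjusted limma p under 0.05 there were 5 in Foxp3-cre, 2 in CD4-cre and 1 between the knockouts. Over all 13576 tested probe sets it was 2534, 1802 and 1428. Pim1, a survival kinase induced by cytokines that phosphorylates BAD, had 10.16, 10.30 and 10.24 in Foxp3-cre, 10.61, 10.61 and 10.62 in CD4-cre and 10.53, 10.85 and 10.84 in WT. It fell by 0.51 in Foxp3-cre (SE 0.10, limma adjusted p = 0.0363), while a second Pim1 set stood at -0.15 (adjusted p = 0.574). The Pim1 call was kept in 2 of the 9 fits that leave out 1 array, those without WT replicate 1 or 2, and the others gave adjusted p of 0.0737 to 0.117. Foxo1, a factor that can switch on Bcl2l11, stood at -0.46 in Foxp3-cre and -0.39 in CD4-cre (adjusted p = 0.0533 and 0.156). Its 3 other tested sets stood at -0.35, -0.39 and 0.002 in Foxp3-cre and at 0.09, -0.22 and 0.03 in CD4-cre. Foxo3, its relative, stood at -0.60 in Foxp3-cre and -0.30 in CD4-cre (adjusted p = 0.114 and 0.489), and at -0.41 and -0.11 without WT replicate 2. A second tested Foxo3 set stood at -0.27 and -0.01 over the 9 arrays. For Il7r, the receptor through which interleukin 7 sustains Bcl2, Foxp3-cre stood at -0.37 against CD4-cre (adjusted p = 0.476), and at -0.15 on a second tested set. Against WT it stood at -0.46 (limma adjusted p = 0.177), and at -0.58 on the second set (adjusted p = 0.130). On the first set Foxp3-cre had 9.92, 10.57 and 10.61, so replicate 1 lay well below the others. Over the 6 lists, 3 of 56 tested genes fell and none rose in Foxp3-cre, where 2.64% of all tested probe sets changed. In the fit with 1 probe set per gene 250 of 7436 genes passed. Without WT replicate 2, 5 of the 56 genes fell, where 5.45% of all tested probe sets changed. Fas and Foxo1, genes chosen after their values were seen, then also passed. Both percentages are over probe sets, while the lists hold 1 set per gene.

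**Figure D4:**
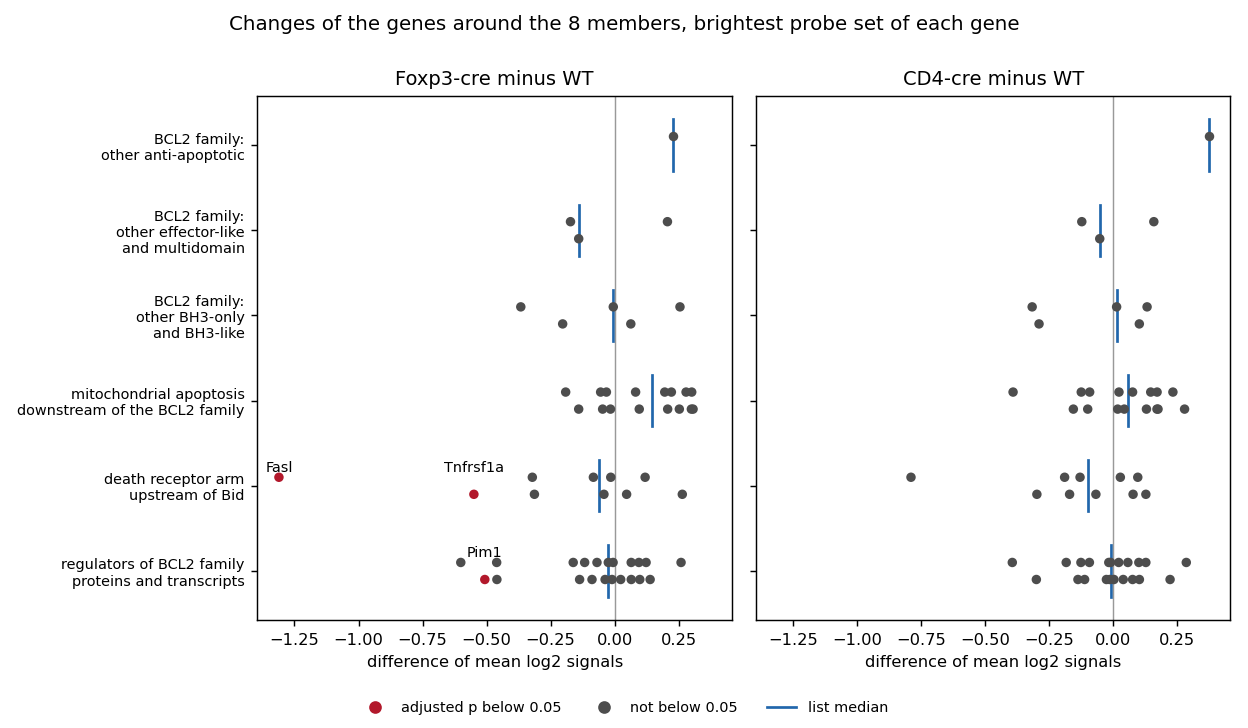
Difference of mean log2 signals in Foxp3-cre (left) and CD4-cre (right), each minus WT, for 56 tested genes in 6 lists around the members, each by its brightest probe set; red points have limma adjusted p below 0.05 and blue lines are list medians. Fasl, Tnfrsf1a and Pim1 are the 3 called genes, all in Foxp3-cre.

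Markers of other cells moved with the genotypes in part. For the counts below, 2.64% of all tested probe sets changed in Foxp3-cre against WT. The share was 3.58% with the block and 5.45% without WT replicate 2. In CD4-cre against WT it was 0.449%. Neutrophil markers, of which 5 of 10 rose in Foxp3-cre, averaged 9.16 to 10.14 in Foxp3-cre, 8.23 to 9.08 in CD4-cre and 7.78 to 8.75 in WT, and all 10 were above the signal threshold. Leaving out 1 array gave 1 to 4 of them, with 3 without WT replicate 2, and the replicate number as a block gave 8. Monocyte and macrophage markers averaged 6.70 to 8.28, 5.94 to 7.13 and 6.09 to 6.59 in the same order of groups, with 1 of 9 risen in Foxp3-cre, 0 to 3 when 1 array was left out and 5 with the block, and B cell markers averaged 5.54 to 6.69, 5.97 to 6.14 and 5.49 to 6.12, with Pax5, Fcer2a and Cr2 below the threshold. Cell cycle genes averaged 7.69 to 8.50, 7.44 to 7.54 and 6.90 to 7.36, and 7 of 18 tested rose in Foxp3-cre, among them Kif11 by 1.27 and Ube2c by 1.25 (adjusted p = 0.0234 and 0.0243). Leaving out 1 array gave 0 to 9 of these 18, with 4 without WT replicate 2, and the block gave 12. In CD4-cre none of the 18 passed, and all 18 stood above 0, with a median of 0.41. The 4 natural killer cell markers averaged 6.57 to 7.15 in Foxp3-cre, 6.79 to 7.29 in CD4-cre and 7.36 to 7.46 in WT, so that every knockout array lay below every WT array, and none of them passed in either knockout. With the block Prf1, 1 of the 4, passed in Foxp3-cre (adjusted p = 0.0435). Plasma cell markers averaged 7.64 to 8.08, 7.93 to 7.94 and 8.03 to 8.14 in the same order of groups, and none passed. With the block 1 of them, Sdc1, passed in Foxp3-cre, at -0.60 (limma adjusted p = 0.0399). The 2 CD8 T cell markers averaged 5.71 to 6.13, 5.31 to 5.76 and 5.37 to 5.64, and none passed. The part of these values in the Mcl1, Fasl, Tnfrsf1a and Pim1 results was not tested.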

How the data were processed

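RNA from 9 samples of CD4+CD25+ mouse cells was measured on 1 array each. The deposited values are log2 signals made by the authors with RMA, per the submitters' processing notes. RMA removes background, makes the arrays' distributions alike and merges a set's probes into 1 value, which compresses differences of dim sets. The sources used here give neither its version nor a genome build. The members and lists were chosen with earlier results of these data known.

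Of 22690 probe sets, 64 controls were left out. Genes were named from the platform annotation, in which 20380 probe sets have exactly 1 symbol, 691 several and 1555 none. The 13576 probe sets whose mean reached the 40th percentile entered 1 two-sided fit over the 3 groups (lmFit, then eBayes, limma 3.58.1, R 4.3.3), with Benjamini-Hochberg adjustment over all tested probe sets. Precision is set by 3 arrays per group, and the standard error of a change had a median of 0.12. The fit was tested on simulated data. The labels number the replicates: same-numbered Foxp3-cre and WT arrays deviated together in every pair (r = 0.225 to 0.250), so a fit with that number as a block is given beside results of this comparison where it changes a call, but not every pair with CD4-cre passed 0.1 (lowest r = -0.015). With 3 arrays against 3, exact permutation reaches p = 0.1 at best and was not used.

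Values are given for every probe set of the 7 genes with one. From each list of other genes, read by the brightest probe set of each gene, at most 4 genes that passed are named, or, with none, the 2 that differed most. Pearson r over 9 arrays names the 5 genes most like the member gene with the highest F. Alternatives covered the signal filter, 1 probe set per gene, the variance prior, array weights, the replicate number as a block, fits of 2 groups, median centring, the actin control as a covariate and leaving out each array.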

Additional observations from a re-analysis of the deposited data

How the results depend on the processing

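Of 885 recomputed changes of single member probe sets under 17 alternatives, 841 kept the side of the threshold, 24 lost a call and 20 gained one. Among called changes 0 turned sign, and 41 small changes that passed in neither fit had another sign. The 885 include the comparison between the knockouts, in which no member passed. In Foxp3-cre the Mcl1 calls held in 14 (1416880_at), 8 (1437527_x_at) and 8 (1456243_x_at) of 16 alternatives. In CD4-cre that of 1416880_at held in 10 of 16. With 1 probe set per gene, Mcl1 is read by 1448503_at alone, and 0 members passed in either knockout against WT. Over all 7436 genes of that fit 250 passed in Foxp3-cre and 49 in CD4-cre. With only the 2 groups compared in the fit, 0 members passed, and the counts over all probe sets were 28 in Foxp3-cre, 11 in CD4-cre and 53 between the knockouts. Array weights gave 6 members in each knockout, with 2668, 2498 and 948 over all probe sets, and gave WT replicate 2 the lowest weight, 0.0850. In Foxp3-cre these included Bcl2l11 1456006_at, at 0.19 (limma adjusted p = 0.048), and not Mcl1 1448503_at. In CD4-cre they included Bak1 1418991_at, at -0.24 (limma adjusted p = 0.0318), and not Mcl1 1416881_at. The actin covariate gave 4 members in CD4-cre, with 764, 361 and 69 over all. Leaving out 1 array gave 0 to 4 members in each knockout and 0 between them, with 64 to 740, 10 to 348 and 1 to 93 over all. The replicate number as a block gave 96 probe sets in CD4-cre and 97 between the knockouts, and 4 members in Foxp3-cre. In Foxp3-cre against WT, where same-numbered arrays deviated together, the block changed no member call but that of 1456381_x_at. The CD4-cre arrays were in the same block fit, though not all of their same-numbered pairs deviated together. The count without WT replicate 2 of members with WT above all knockout arrays was chosen after seeing the data. The causes of these shifts were not tested.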

Other observations

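The genes whose brightest probe set followed Mcl1 1416880_at most closely over the 9 arrays, a set chosen after its values were seen, were Gpc1 (Pearson r = 0.984), Gimap7 (0.97), Slfn2 (0.973), Sfn (0.971) and Cdc5l (0.966). Gpc1 encodes a glypican of the cell surface, Gimap7 a lymphocyte GTPase, Sfn the 14-3-3 protein sigma and Cdc5l a splicing factor. Slfn2, a gene that keeps mouse T cells quiescent, read 10.69, 10.64 and 10.74 in Foxp3-cre, 10.60, 10.64 and 10.63 in CD4-cre and 10.97, 11.22 and 10.99 in WT. All 9 arrays share their normalization, and both sides of each r hold the same split between knockouts and WT, so these values are a description.

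Bik has 2 further probe sets, both below the signal threshold and without a test. The set 1420362_a_at stood at -0.78 in Foxp3-cre and -0.87 in CD4-cre, and 1420363_at at -0.23 and -0.16.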
